A study of Mus musculus with 9 samples.

Results

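S1pr1, S1pr4, Cd69, Ccr7 and Klf2 are genes that govern whether lymphocytes leave or stay in a tissue. They were followed here in group 2 innate lymphoid cells (ILC2s), lymphocytes that live in tissues and make type 2 cytokines. The 5 genes were chosen by name, each matched 1 row of the count table, and the table holds 23466 genes in all. Bulk RNA was sequenced from 3 groups of 3 libraries, all from wild type C57/Bl6 mice aged 10 weeks. The first group was brain meninges of mice with no injury, the second was brain meninges taken 24 h after the cord had been contused at 80 kdyn, and the third was lung of mice with no injury. Per the labels, cells were sorted as CD45+, DAPI-, Lin-, St2+ and Thy1+, and 5 mice were pooled for each group. Whether the 3 libraries of a group are 3 pools or 1 is not stated, and p-values therefore cover only the spread between libraries, which may be technical. No group was labelled as sham-operated, so the contusion and the surgery around it cannot be told apart.

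Lymphocytes leave tissues along a gradient of sphingosine-1-phosphate (S1P), a lipid that is scarce in tissue and abundant in blood and lymph. S1PR1 is the receptor that reads this gradient, and CD69, a surface lectin induced early on activation, binds S1PR1 and takes it off the cell surface, so that the cell is retained. CCR7 guides cells towards the chemokines of lymphatic vessels and lymph nodes, and KLF2 is a transcription factor of quiescent lymphocytes known to switch on S1pr1. S1PR4 is a further S1P receptor of blood cells. S1pr1 and Klf2 are also known as strongly expressed genes of endothelium. CD69 acts on the S1PR1 protein, which these RNA data do not measure.

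Library totals ran from 13407277 to 18253462 counts, and 13465 to 18452 genes had at least 1 count. Injured meninges 2 had the fewest genes and stood apart, with Spearman correlations across genes of 0.815 and 0.819 to its group, against 0.856 to 0.879 between libraries within the other groups. All 15 ILC2 markers checked, among them Il1rl1 (the gene of ST2), Gata3 and Rora, had counts in all 9 libraries. Their levels were not all equal between groups. Levels are given as CPM, the usual unit of counts relative to library size, here with TMM-scaled library sizes. In a single library, 3 counts, the upper limit that a count of 0 allows, came to 0.163 to 0.239 CPM. This limit covers counting error only, since amplified reads are not independent molecules.

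The stretches upstream of the transcript start are shown for Klf2 and S1pr4, as the letters against which the upstream factors described further on (MEF2 and KLF factors) can be read. They hold the 250 bases before the start, 5′ to 3′ on the gene's strand, from RefSeq on GRCm38.p6. The table of starts held these 2 of the 5 genes. Klf2 lies at chr8:72318812-72319061 on the plus strand and S1pr4 at chr10:81500138-81500387 on the minus strand. Capitals mark a match to the MEF2 consensus, a palindrome, and CACCC or its reverse complement GGGTG, the core that factors of the KLF family are known to bind.
Klf2: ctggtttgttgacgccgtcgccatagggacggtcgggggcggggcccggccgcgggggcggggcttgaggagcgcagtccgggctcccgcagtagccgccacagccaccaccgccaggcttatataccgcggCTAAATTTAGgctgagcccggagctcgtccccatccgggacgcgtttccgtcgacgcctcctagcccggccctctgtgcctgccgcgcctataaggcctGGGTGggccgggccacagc
S1pr4: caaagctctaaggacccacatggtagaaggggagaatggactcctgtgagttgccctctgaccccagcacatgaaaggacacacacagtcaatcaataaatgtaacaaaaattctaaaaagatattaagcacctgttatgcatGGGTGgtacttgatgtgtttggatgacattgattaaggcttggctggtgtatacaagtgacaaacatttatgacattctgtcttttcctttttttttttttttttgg
In Klf2 the MEF2 match begins 118 bases before the start, and a GGGTG begins 19 bases before it. S1pr4 has 1 GGGTG, which begins 107 bases before the start. Over 32851 starts in the table, searched on both strands, 2.92% hold a MEF2 match and 52% hold CACCC, so the second match is common. The motifs share no bases in these stretches, and a match is a description of letters, not a bound site.

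**Figure D1:**
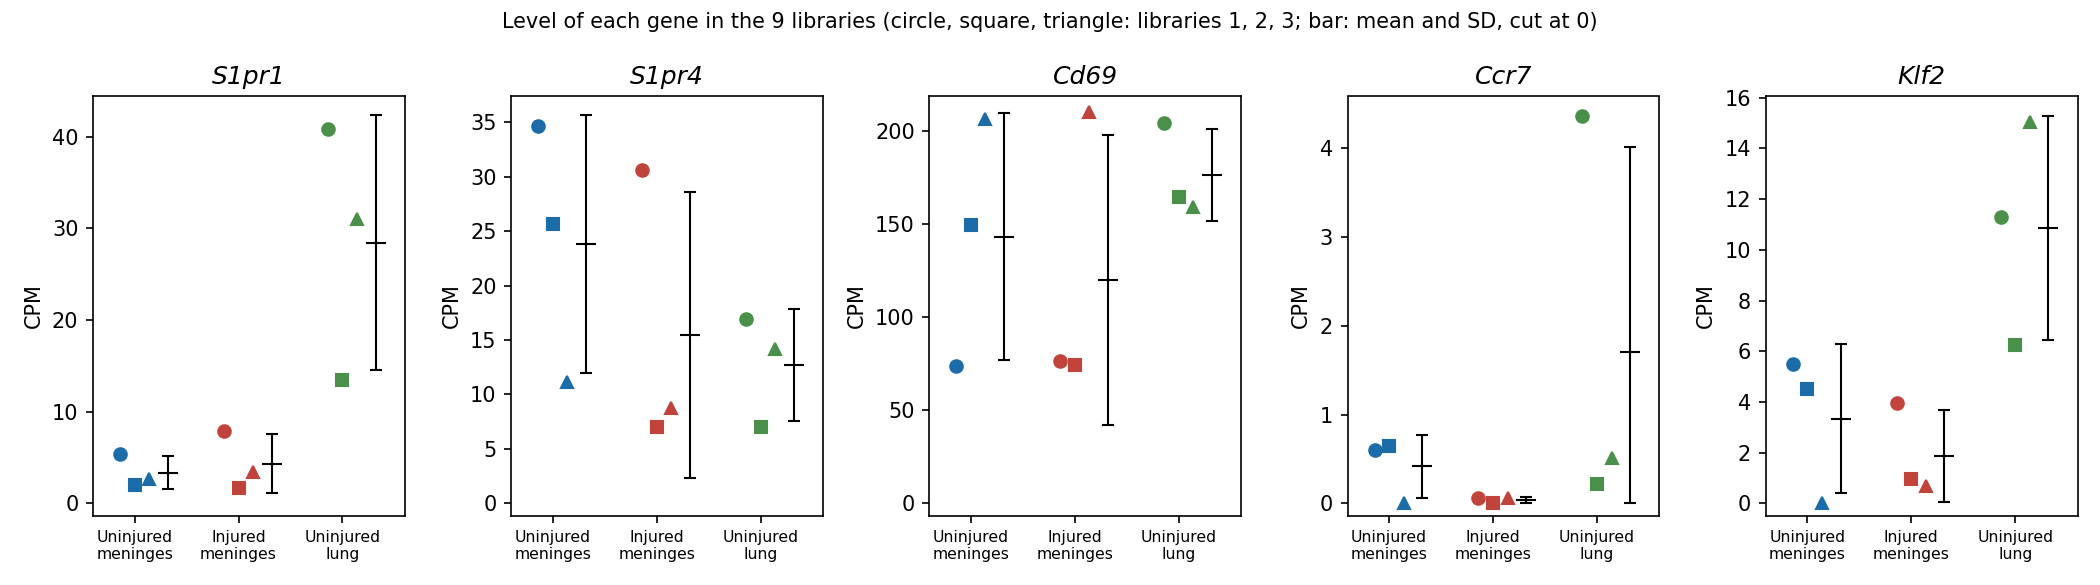
Level in CPM (vertical axes, 1 scale per gene) of S1pr1, S1pr4, Cd69, Ccr7 and Klf2 in the 9 libraries by group; circles, squares and triangles are libraries 1, 2 and 3, and bars give the mean and SD (n = 3). The lung libraries lie above all 6 meningeal libraries for S1pr1 and Klf2, and the groups overlap for S1pr4 and Cd69.

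S1pr1 (ENSMUSG00000045092), the egress receptor, was scarce in meningeal ILC2 libraries and had higher levels in the lung libraries. It stood at 5.39, 2.00 and 2.69 CPM in uninjured meninges, at 7.89, 1.67 and 3.38 CPM in injured meninges, and at 40.9, 13.5 and 31.0 CPM in lung. Each lung library was above every meningeal one, and the meningeal groups overlapped. Mean levels were 3.36 ± 1.79, 4.31 ± 3.21 and 28.5 ± 13.9 CPM (SD, n = 3 each), so that lung was 8.47-fold above uninjured meninges. The fitted log2 fold change of uninjured meninges against lung was -3.08 ± 0.91 (SE), which did not pass over all genes (edgeR quasi-likelihood test, adjusted p = 0.21, unadjusted p = 0.0041). DESeq2 called the same difference at -3.12 ± 0.73 (adjusted p = 0.0014), and over the 18 alternatives the adjusted p ran from 0.0014 to 0.68. The adjusted p was 0.070 without injured meninges 2, which enters this comparison only through the shared spread. Injured meninges against lung gave -2.72 ± 0.90 (edgeR adjusted p = 0.19, unadjusted p = 0.0084; DESeq2 adjusted p = 0.0051; 0.0051 to 0.50 over the alternatives). Both comparisons use the same lung libraries, and the second sets tissue and injury apart at once, so these cannot be told apart in it. After injury the difference within meninges was 0.36 ± 0.85 on the log2 scale (edgeR adjusted p = 0.95), and its sign turned to -0.41 without injured meninges 1.

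Because S1pr1 is also an endothelial gene, its level was set beside 10 endothelial markers. Their summed level was 235.8, 69.5 and 177.7 CPM in uninjured meninges, 176.6, 148.3 and 67.5 CPM in injured meninges, and 755.4, 263.1 and 580.4 CPM in lung. Lung 2 was the lowest lung library for the marker sum and for S1pr1 alike. This order was not particular to endothelial markers. Lung epithelial markers summed to 2164, 684.8 and 1297 CPM in lung 1, 2 and 3, and fibroblast markers to 144.9, 106.6 and 284.5 CPM. Monocyte and macrophage markers summed to 359.5, 34.4 and 482.1 CPM. B cell markers (240.4, 336 and 279.9 CPM) and T cell markers (252.4, 364.4 and 310.5 CPM) were instead highest in lung 2. S1pr1 amounted to 5.41%, 5.12% and 5.34% of the marker sum in the lung libraries, 2.29%, 2.88% and 1.51% in uninjured and 4.46%, 1.13% and 5.01% in injured meninges, a ratio chosen after its values were seen. The lung libraries, which differed 3.03-fold in S1pr1, all lay between 5.12% and 5.41% on this ratio. All 10 markers had a negative log2 fold change in uninjured meninges against lung, with a median of -1.54 against 0.00 over all genes. None was called by edgeR (0.635% of all genes) or limma voom (1.29%). DESeq2 called 1 (3.53% of all genes), and 4 had an unadjusted p under 0.05 (7.98%). In injured meninges against lung 9 of 10 were negative, with a median of -2.59. There edgeR (1.05% of all genes) and limma voom (1.81%) called none. DESeq2 called 5 (7.02% of all genes), and 8 had p under 0.05 before adjustment (13.3%). Pecam1, the most abundant of them, had 88.0, 40.8 and 46.5 CPM in uninjured meninges, 48.1, 71.3 and 32.8 CPM in injured meninges and 194, 78.3 and 140 CPM in lung. None of the 10 was at 0 in a lung library, while up to 2 were at 0 in a meningeal one. The gate took CD45+ cells, and the part of endothelial RNA in the level of S1pr1 was not tested. In bulk libraries, fewer cells of a type and less RNA per cell cannot be told apart.

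**Figure D2:**
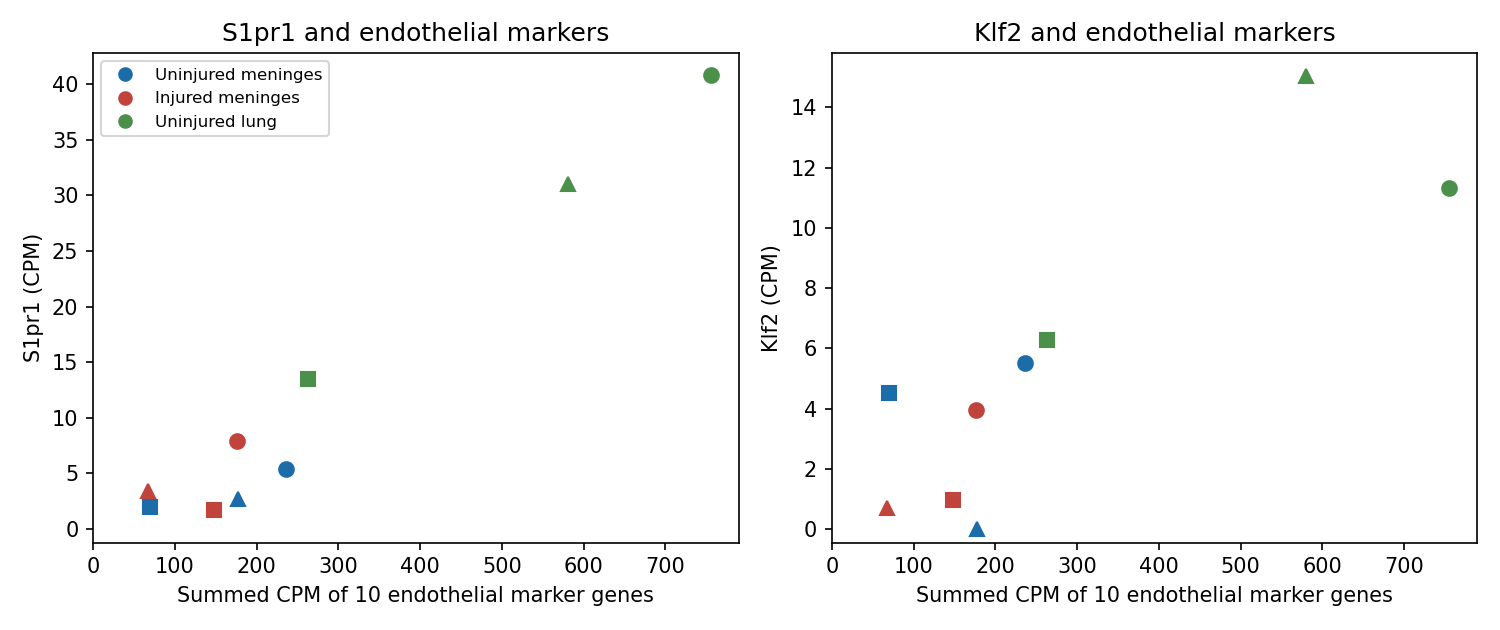
S1pr1 (left) and Klf2 (right) in CPM against the summed CPM of 10 endothelial marker genes, 1 point per library, with circles, squares and triangles for libraries 1, 2 and 3 and linear axes. The lung points of S1pr1 run from 13.5 CPM at a sum of 263.1 to 40.9 CPM at a sum of 755.4, and Klf2 is at 0 in uninjured meninges 3 at a sum of 177.7.

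S1pr4 (ENSMUSG00000044199), the second S1P receptor of the set, had its highest group mean in uninjured meninges. Its levels were 34.7, 25.7 and 11.2 CPM in uninjured meninges, 30.6, 7.0 and 8.71 CPM in injured meninges, and 17.0, 7.0 and 14.2 CPM in lung. The 3 groups overlapped, with high values in libraries 1 and 2 of uninjured meninges and in library 1 of injured meninges. The means were 23.8 ± 11.9, 15.4 ± 13.2 and 12.7 ± 5.14 CPM (SD, n = 3 each), and no pair of neighbours in this order differed beyond its spread. The log2 fold change was 0.91 ± 0.75 for uninjured meninges against lung (edgeR adjusted p = 0.91), -0.63 ± 0.75 for injured against uninjured meninges (0.87) and 0.28 ± 0.75 for injured meninges against lung (0.93). The last of these turned to -0.71 without injured meninges 1 and to -0.03 without lung 2.

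Per length of transcribed sequence, the order of these receptors differed between the tissues. In CPM per kilobase of exon (GENCODE M21), S1pr4 averaged 9.99 and S1pr1 averaged 1.10 in uninjured meninges, against 5.32 and 9.34 in lung. Within single libraries the ratio of S1pr4 to S1pr1 on this scale was 8.21, 16.4 and 5.30 in uninjured meninges, 4.95, 5.35 and 3.29 in injured meninges, and 0.530, 0.663 and 0.583 in lung. S1pr4 was therefore above S1pr1 in all 6 meningeal libraries and below it in all 3 lung libraries. This ratio does not depend on library scaling, and it was chosen after its values were seen. The log2 ratio was higher by 3.92 in uninjured meninges than in lung and by 2.91 in injured meninges than in lung. Each gave p = 0.10 in a two-sided exact permutation test of 3 against 3 libraries, the smallest p that this design allows, or 0.15 after adjustment over the 3 comparisons. Neither this p nor its adjustment covers the choice of the ratio after its values were seen, so they add no support. Leaving out any library compared kept the first difference between 3.48 and 4.30 and the second between 2.77 and 3.13. Injured and uninjured meninges overlapped in this ratio and differed by -1.01 on the log2 scale (exact permutation p = 0.20, adjusted 0.20). Between the tissues the endothelial marker sums given for S1pr1 move opposite to this ratio, being higher in every lung library, where the ratio was lower. The part of these sums in the ratio was not tested.

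**Figure D3:**
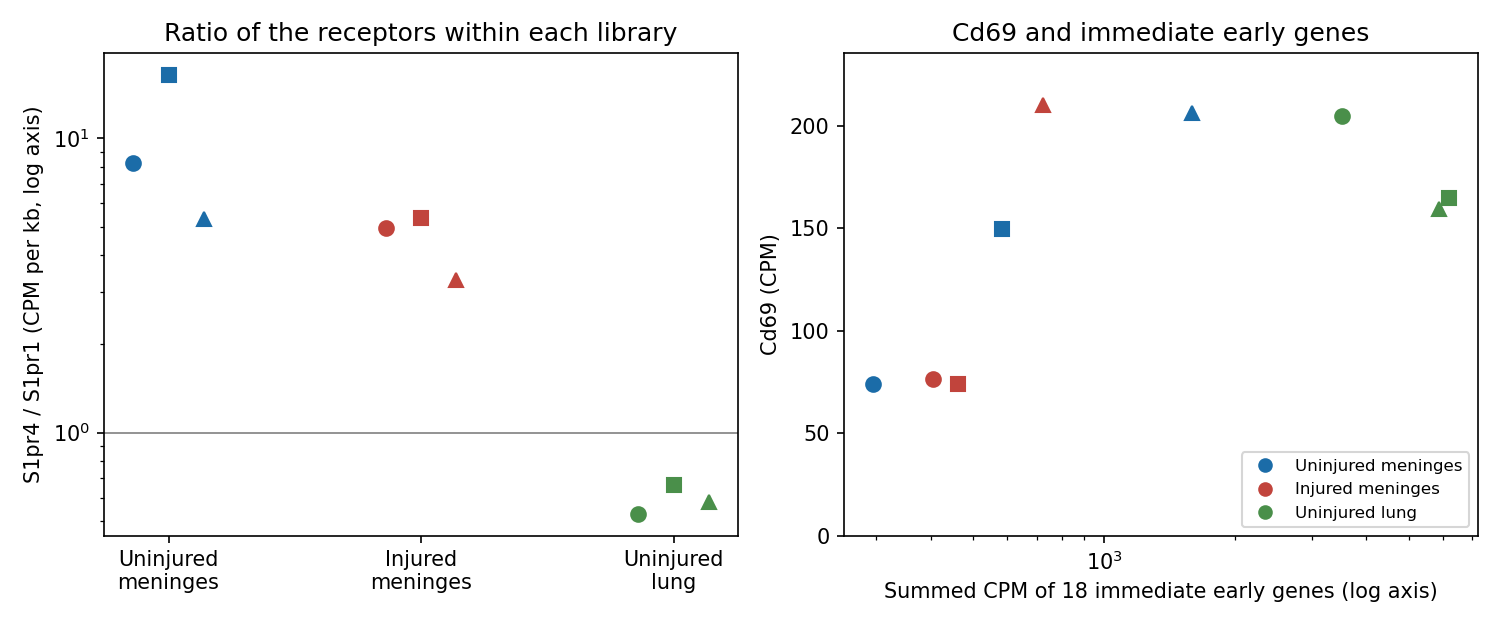
Left, the ratio of S1pr4 to S1pr1 in CPM per kilobase within each library (log axis, grey line at 1) by group; right, Cd69 in CPM against the summed CPM of 18 immediate early genes (log axis), with circles, squares and triangles for libraries 1, 2 and 3. The ratio lies between 3.29 and 16.4 in meninges and between 0.530 and 0.663 in lung, and Cd69 reaches about 205 to 210 CPM in 1 library of each group.

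The other S1P receptors with a row in the count table were S1pr3 and S1pr2, and S1pr5 had none. S1pr3, best known from vessel and stromal cells, had 2.72, 0.0645 and 2.35 CPM in uninjured meninges, no count in the 3 injured libraries, and 15.2, 2.95 and 5.89 CPM in lung. Uninjured meninges 2 was itself under its limit of 3 counts, and lung 1 held most of the lung level. The difference of injured meninges from uninjured meninges and that from lung did not pass (edgeR adjusted p = 0.35 and 0.088). S1pr2, a receptor that restrains migration, ranged from 0 to 21.3 CPM and had its highest and lowest values within injured meninges. Of the 4 S1P receptors tested, edgeR called none in any comparison, with p under 0.05 before adjustment for 1, 1 and 2. DESeq2 called 1 after injury, 1 between uninjured tissues and 2 between injured meninges and lung, and limma voom called 0, 0 and 1. In this order, p before adjustment was under 0.05 for 8.94%, 7.98% and 13.3% of all genes. Of all genes, edgeR called 0.192%, 0.635% and 1.05%, DESeq2 2.86%, 3.53% and 7.02%, and limma voom 0.112%, 1.29% and 1.81%.

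Cd69 (ENSMUSG00000030156), the retention lectin, was the most abundant of the 5 genes on the CPM per kilobase scale in every group, at means of 22.0 without injury, 18.5 after injury and 27.1 in lung. Its levels were 74.0, 149.7 and 206.5 CPM in uninjured meninges, 76.4, 74.3 and 210.4 CPM in injured meninges, and 204.8, 165 and 159.4 CPM in lung. Library 3 was the highest in both meningeal groups, and the lung range lay within the meningeal one. The lung libraries were close to each other (coefficient of variation 14%), and the meningeal libraries were not (46.4% uninjured, 64.8% injured). The means of 143 ± 66.5, 120 ± 78.0 and 176 ± 24.8 CPM (SD, n = 3 each) did not differ beyond this spread. The log2 fold change was -0.25 ± 0.41 for injured against uninjured meninges (edgeR adjusted p = 0.91), -0.30 ± 0.41 for uninjured meninges against lung (0.98) and -0.55 ± 0.41 for injured meninges against lung (0.64). Without injured meninges 2 the first was 0.00, and without uninjured meninges 3 it was 0.11.

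Cd69 is itself known as an early response gene, so 18 immediate early genes, which cells induce within minutes of stimulation or handling, were summed in each library. The sum was 295, 584 and 1593 CPM in uninjured meninges, 404, 462 and 723 CPM in injured meninges, and 3523, 6184 and 5874 CPM in lung. Within each meningeal group the library with the most Cd69 also had the largest sum. Within lung this was reversed, as lung 1 had the most Cd69 (204.8 CPM) and the smallest sum. In lung the sums were larger than in any meningeal library, while Cd69 was no higher than in library 3 of either meningeal group. Of the 18 genes, edgeR called 4 lower in uninjured meninges than in lung (Nr4a3, Dusp1, Atf3 and Zfp36). It called 6 lower in injured meninges than in lung, adding Junb and Nr4a1. DESeq2 called 6 and 8 of the 18 in these comparisons, and limma voom called 9 in each. Over all genes edgeR called 0.635% and 1.05% in them, DESeq2 3.53% and 7.02%, and limma voom 1.29% and 1.81%. After injury none of the 18 was called by edgeR (0.192% of all genes) or limma voom (0.112%). DESeq2 called 1 (2.86% of all genes), with 2 at an unadjusted p under 0.05 (8.94%). Nr4a3, a nuclear receptor gene, had the smallest of these p values, with a mean of 18.5 ± 9.76 CPM without injury and of 71.6 ± 17.4 CPM with it (edgeR adjusted p = 0.086). Type I interferon is known to induce Cd69 as well. The summed level of 12 interferon-stimulated genes was highest in library 3 of each group, at 256, 220.3 and 106.7 CPM, and its lowest value was 181.2 CPM without injury, 73.3 CPM after injury and 51.3 CPM in lung. None of the 12 was called by edgeR or limma voom, and DESeq2 called 1 in each comparison with lung and 0 after injury. Before adjustment p was under 0.05 for 2 after injury, for 3 in uninjured meninges against lung and for 1 in injured meninges against lung. In that order the shares over all genes were 8.94%, 7.98% and 13.3%, and by DESeq2 2.86%, 3.53% and 7.02%. By edgeR they were 0.192%, 0.635% and 1.05%, and by limma voom 0.112%, 1.29% and 1.81%. The part of either program in the level of Cd69 was not tested.

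Klf2 (ENSMUSG00000055148), the quiescence factor upstream of S1pr1, was low throughout and uneven between libraries. It stood at 5.50, 4.52 and 0 CPM in uninjured meninges, at 3.94, 0.955 and 0.689 CPM in injured meninges, and at 11.3, 6.26 and 15.1 CPM in lung. The count of 0 in uninjured meninges 3, where the other libraries of the group had 101 and 70 counts, allows a level of up to 0.202 CPM. Each lung library was above every meningeal one, and the meningeal groups overlapped. The means were 3.34 ± 2.93, 1.86 ± 1.81 and 10.9 ± 4.41 CPM (SD, n = 3 each). The log2 fold change was -1.70 ± 1.5 for uninjured meninges against lung (edgeR adjusted p = 0.93), -2.54 ± 1.55 for injured meninges against lung (0.53) and -0.84 ± 1.48 for injured against uninjured meninges (0.92). The sign of the last was positive with limma voom (0.55). Standard errors of about 1.5 mean that a 4-fold difference of this gene lay within 2 SE of 0. Klf2 amounted to 1.5% to 2.59% of the endothelial marker sum in lung and to 0% to 6.50% in meninges.

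Ccr7 (ENSMUSG00000037944), the homing receptor, had very few counts in most libraries. It had 11, 10 and 0 counts in uninjured meninges, 1, 0 and 1 in injured meninges, and 71, 3 and 8 in lung. Only lung 1, at 4.36 CPM, exceeded 1 CPM, and the other lung libraries (0.221 and 0.512 CPM) lay within the range of uninjured meninges (0 to 0.645 CPM). All 3 injured libraries were under their limit of 3 counts. The gene did not pass the filter on low counts and so had no test in the fit, and without that filter no comparison passed (edgeR adjusted p = 0.71 for injured against uninjured meninges, 0.86 for uninjured meninges against lung, 0.43 for injured meninges against lung). Mature dendritic cells are a known source of Ccr7. The 10 dendritic cell markers had their highest sum in lung 3 (148 CPM), where Ccr7 had 8 counts. They summed to 132.4 CPM in lung 1, the second highest of the 9 libraries. Among them H2-Aa was at 69.8 CPM there, Clec9a at 21.6, Itgax at 6.88 and Cacnb3 at 0.369, and Fscn1 and Ccl22 had no count. Among T cell markers in that library, Cd3e was at 8.60 CPM, Cd4 at 1.60 and Lef1 at 22.7, and T cell markers summed to 252.4 CPM there, the lowest of the 9 libraries. The part of either cell type in the level of Ccr7 was not tested.

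**Figure D4:**
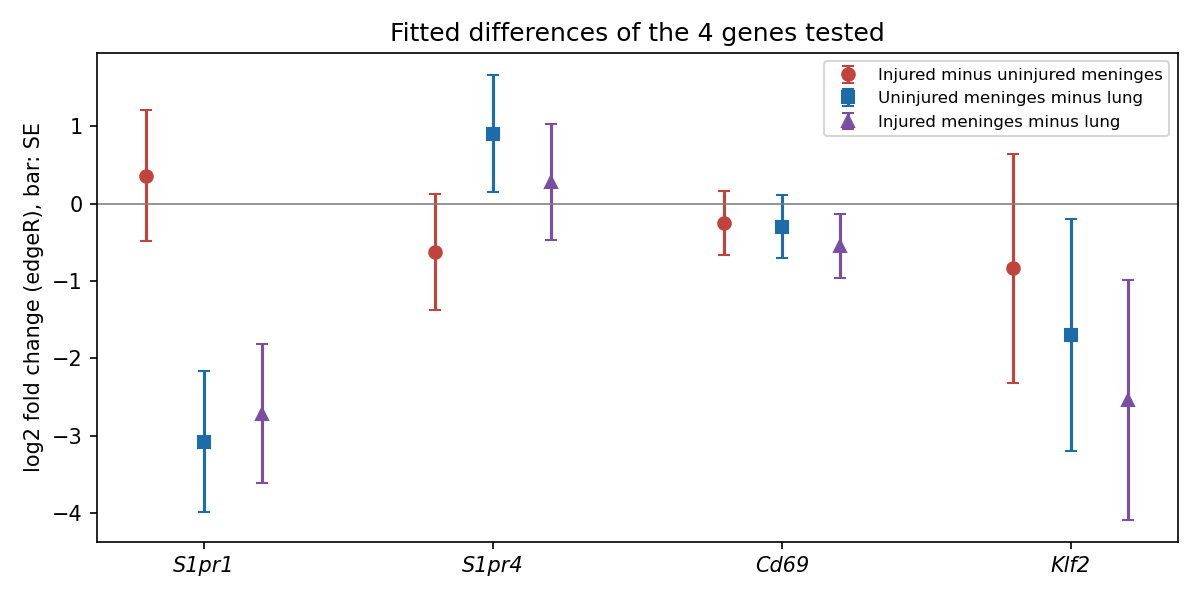
Fitted log2 fold changes from edgeR for S1pr1, S1pr4, Cd69 and Klf2 in the 3 comparisons, with bars for 1 SE and a grey line at 0. The values lie between -3.08 for S1pr1 in uninjured meninges against lung and 0.91 for S1pr4 in the same comparison, and no adjusted p is under 0.05.

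After spinal cord injury, edgeR called 0 of the 4 genes tested, against 0.192% of 15117 genes, with 0 at an unadjusted p under 0.05 (8.94% of genes) and 0 called by DESeq2 (2.86%) or limma voom (0.112%). The groups overlapped for all 4, while they did not overlap for 12.1% of genes. Between uninjured meninges and lung, edgeR again called 0 of 4 (0.635% of genes), 1 had an unadjusted p under 0.05 (7.98%), DESeq2 called 1 (3.53%) and limma voom 0 (1.29%). S1pr1 was that gene in each case, and S1pr1 and Klf2 were lower in meninges without overlap, as were 10.6% of genes (18.2% in either direction). Between injured meninges and lung, edgeR called 0 of 4 (1.05%), 1 had an unadjusted p under 0.05 (13.3%), DESeq2 called 1 (7.02%) and limma voom 0 (1.81%). There S1pr1 and Klf2 were lower without overlap, as were 11.4% of genes (17.8% in either direction), and so was Ccr7, which was not tested. The median standard error over all genes was 0.95 or more on the log2 scale in each comparison, so a 2-fold difference was about 1 SE for a typical gene.

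Among 12 tested genes that make, export or break down S1P, edgeR and limma voom called none in any comparison, and DESeq2 called 1, 0 and 2 in the order injury, uninjured meninges against lung and injured meninges against lung. In the same order 2, 0 and 3 of them had p under 0.05 before adjustment, against 8.94%, 7.98% and 13.3% of all genes. Of all genes, edgeR called 0.192%, 0.635% and 1.05%, and limma voom 0.112%, 1.29% and 1.81%. The DESeq2 shares over all genes were 2.86%, 3.53% and 7.02%. Sgpl1, the lyase that destroys S1P inside cells, ranged from 21.7 to 74.2 CPM over the 9 libraries. Mfsd2b, an S1P exporter of red cells and platelets, was at 60.9 and 10.0 CPM in injured meninges 2 and 3 and at no more than 1.90 CPM elsewhere (edgeR adjusted p = 0.36 after injury). Spns2, the S1P exporter of endothelium, had 2.77, 2.72 and 6.60 CPM in lung and no more than 0.968 CPM in any meningeal library.

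Among 19 tested genes of receptor coupling and motility, edgeR and limma voom called none in the 3 comparisons. DESeq2 called 1 in each, against 2.86%, 3.53% and 7.02% of all genes in the same order. Before adjustment p was under 0.05 for 2, 2 and 3, against 8.94%, 7.98% and 13.3% of all genes. The shares called over all genes were 0.192%, 0.635% and 1.05% by edgeR and 0.112%, 1.29% and 1.81% by limma voom. Grk5, a kinase that desensitises G-protein-coupled receptors, had 38.3, 37.9 and 40.4 CPM in uninjured meninges, 17.4, 6.76 and 9.9 CPM in injured meninges, and 50, 25.7 and 28.6 CPM in lung. The meningeal groups did not overlap, at a log2 fold change of -1.77 ± 0.54 that did not pass (edgeR adjusted p = 0.35). Wasf2, an actin regulator, averaged 130 ± 21.6 CPM in uninjured meninges and 269 ± 44.0 CPM in lung (edgeR adjusted p = 0.095). Gnai2, the G protein through which S1PR1 and CCR7 signal, ranged from 102 to 188 CPM over the 9 libraries. Dock2, which drives lymphocyte migration, ranged from 436 to 694 CPM.

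The axis from ERK5 and MEF2 to KLF2 and its targets had 19 tested genes, members of the set included. Of these edgeR called 1, in a comparison where it called 1.05% of all genes. This was Klf4, a relative of Klf2, lower in injured meninges than in lung (2.76 ± 1.35 against 59.2 ± 12.9 CPM, log2 fold change -4.43 ± 0.90, edgeR adjusted p = 0.025). Uninjured meninges had 5.88 ± 6.82 CPM of Klf4 (adjusted p = 0.12 against lung). In uninjured and in injured meninges against lung, DESeq2 called 2 each (3.53% and 7.02% of all genes) and limma voom 1 each (1.29% and 1.81%). An unadjusted p under 0.05 was found for 2 and 4 (7.98% and 13.3%). Without overlap 3 were lower and 2 higher in uninjured meninges, and 6 lower and 3 higher in injured meninges (18.2% and 17.8% of all genes in either direction). After injury none of the 19 was called by edgeR (0.192% of all genes), DESeq2 (2.86%) or limma voom (0.112%). There 3 had an unadjusted p under 0.05 (8.94%). Il7r, a known FOXO1 target, had 1530, 1290 and 1080 CPM without injury and 1670, 2220 and 2370 CPM after it, without overlap (0.68 ± 0.18, edgeR adjusted p = 0.22). Foxo1 ranged from 48.2 to 212 CPM over the 9 libraries. Mapk7, the gene of ERK5, had 14.5, 16 and 4.03 CPM in uninjured meninges, 9.2, 3.82 and 4.45 CPM in injured meninges, and 15.1, 11 and 24.5 CPM in lung. As for Klf2, library 3 was the lowest of uninjured meninges and lung 3 the highest of all. Mef2a and Mef2d, genes of MEF2 factors, ranged from 209 to 383 CPM and from 107 to 264 CPM.

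Lymph node homing genes, 11 tested, had no call by edgeR in any comparison, and p before adjustment was under 0.05 for 0, 2 and 0. Over all genes that share was 8.94%, 7.98% and 13.3%, and edgeR called 0.192%, 0.635% and 1.05%. DESeq2 called none (2.86%, 3.53% and 7.02% of all genes), and limma voom called 1 between uninjured meninges and lung (1.29% of all genes). Itga4, the integrin alpha 4 chain, averaged 1020 ± 122 CPM in uninjured meninges, 827 ± 29.9 after injury and 668 ± 76.3 in lung (log2 fold change of uninjured meninges against lung 0.60 ± 0.17, edgeR adjusted p = 0.18). Ccr9, a gut homing receptor, had 76.2, 127 and 211 CPM in uninjured meninges, above every lung library (43.0, 74.7 and 63.2 CPM), and did not pass (adjusted p = 0.30). Cxcr4, a retention receptor of bone marrow, ranged from 10.9 to 134 CPM and was lowest in uninjured meninges 3.

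Of 20 residency genes tested, Cd69 included, edgeR called 2 lower in uninjured meninges than in lung. DESeq2 and limma voom called 5 each, and 10 had an unadjusted p under 0.05. Over all genes these shares were 0.635% by edgeR, 3.53% by DESeq2, 1.29% by limma voom and 7.98% before adjustment. The median log2 fold change of the 20 was -0.71, against 0.00 over all genes. Of the 10, Zfp683 (10.4, edgeR adjusted p = 0.22) and Rgs1 (0.81, adjusted p = 0.54) were higher in uninjured meninges, and the rest were lower. Zfp683 had 1.36, 2.19 and 29.6 CPM in uninjured meninges and no count in lung. Cdh1, among the lower ones, is also in the lung epithelial list. Without overlap 8 were lower and 3 higher (18.2% of all genes in either direction). The 2 called were Rgs2 (227 ± 106 against 1340 ± 411 CPM) and Cd44 (290 ± 20.3 against 721 ± 173 CPM). In injured meninges against the same lung libraries 4 were called lower by edgeR, Rgs2, Cd44, Bhlhe40 and Nr4a1. DESeq2 and limma voom called 5 each. Over all genes edgeR called 1.05% there, DESeq2 7.02% and limma voom 1.81%. Nr4a1 is also in the immediate early list, whose sums were 3523 to 6184 CPM in lung and 295 to 1593 CPM in meninges. Endothelial, fibroblast and lung epithelial marker sums were likewise higher in every lung library, and the part of these in the residency genes was not tested. After injury none of the 20 was called by edgeR (0.192% of all genes), DESeq2 (2.86%) or limma voom (0.112%). An unadjusted p under 0.05 was found for 1 (8.94%). That gene was Bhlhe40, a transcription factor of resident lymphocytes, with a mean of 251 ± 87.9 CPM before injury and of 117 ± 54.8 CPM after it (edgeR adjusted p = 0.34). Rgs1, which dampens chemokine and S1P receptor signals, had 264, 341 and 371 CPM in uninjured meninges, 213, 324 and 730 CPM in injured meninges, and 135, 200 and 220 CPM in lung. Uninjured meninges lay above lung without overlap (adjusted p = 0.54). The integrin Itgae, a residency marker of T cells, was at 0.202 to 12.7 CPM.

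Partners of CD69 and lectin genes of its family, 13 tested, had no edgeR or limma voom call, and DESeq2 called 1, 1 and 2. Before adjustment p was under 0.05 for 2, 1 and 2 of them, against 8.94%, 7.98% and 13.3% of all genes. The edgeR shares over all genes were 0.192%, 0.635% and 1.05%, and those of limma voom 0.112%, 1.29% and 1.81%. The DESeq2 shares over all genes were 2.86%, 3.53% and 7.02%. Myl12b, a myosin light chain of the family that binds CD69, had 144, 131 and 160 CPM in uninjured meninges, 87.5, 58 and 74.8 CPM in injured meninges, and 142, 130 and 140 CPM in lung. The injured libraries lay below all others, at -0.98 ± 0.26 against uninjured meninges (edgeR adjusted p = 0.24). Clec2d, a lectin gene of the same cluster, had 57.2, 36.5 and 24.8 CPM without injury and 22.9, 6.05 and 10.5 CPM after it (-1.58 ± 0.57, adjusted p = 0.46).

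The genes whose pattern over the 9 libraries was most like that of each member were found by Pearson correlation of log2(CPM + 0.5), over genes averaging 10 CPM or more, and are named as a description. For S1pr1 they were Fbn1, Limch1 and Tspan2 (r = 0.982, 0.976 and 0.973). Each had at least 10 CPM in every lung library and at most 11.2 CPM in any meningeal one. For S1pr4 they were Slc25a12, Ruvbl1 and Tuba1b (0.902, 0.900 and 0.887), for Cd69 they were Anks1, Peak1 and Eif3g (0.923, 0.919 and 0.913), and for Ccr7 they were Atp5h, Tspan18 and Etfa (0.930, 0.847 and 0.846). For Klf2 they were Mpdz, Zcchc24 and Mapk7 (0.966, 0.962 and 0.931). Among the members, the highest correlations were those of S1pr1 with Klf2 (0.776), of Ccr7 with Klf2 (0.664) and of S1pr1 with Ccr7 (0.657). Ccr7 had 71 counts in lung 1 and at most 11 in any other library. Its correlations therefore draw on 1 library and on very few counts elsewhere. Cd69 and S1pr4 had a correlation of -0.393. These values share the group structure and the depth of 9 libraries. The genes named for each member were the highest of 7278 or 7279 searched, so their correlations can be high without any relation to it.

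Markers of other cells that could carry these transcripts were summed in each library, and the gene named for each list has its highest mean over all 9 libraries, a rank that differs between groups for several lists. B cell markers summed to 33.1 to 137.4 CPM in injured meninges, 223.7 to 947.5 in uninjured meninges and 240.4 to 336 in lung. Ighm, the highest of them, was at 59.1 CPM of the 137.4 CPM in injured meninges 2. Dendritic cell markers (H2-Aa) summed to 38.1 to 148 CPM over the 9 libraries, NK cell and ILC1 markers (Klrb1c) to 0.0645 to 13.9 CPM and T cell markers (Trbc1) to 252.4 to 460.2 CPM, and Cd8a was under 2 CPM in every library. Lymphatic endothelial markers (Lyve1) summed to 0 to 34.5 CPM in meninges and 16.1 to 115.7 CPM in lung. The highest meningeal sum, in uninjured meninges 1, was mostly Flt4 (24.8 CPM), with Lyve1 at 4.35 CPM. Lung epithelial markers (Scgb1a1) summed to 684.8 to 2164 CPM in lung and 4.03 to 27.6 CPM in meninges. Fibroblast markers (Col3a1) summed to 106.6 to 284.5 CPM in lung and 3.89 to 82.0 CPM in meninges. Pdgfra had the highest mean of this list in lung (43.1 CPM) and Dcn the highest in both meningeal groups (18 CPM uninjured, 6.85 CPM injured). Monocyte and macrophage markers (Lyz2) summed to 6.65 to 482.1 CPM, with Lyz2 at 326 and 425 CPM in lung 1 and 3 and Mrc1 the highest in injured meninges (mean 34 CPM). Neutrophil markers (S100a9) summed to 0.0795 to 130 CPM, with S100a8 the highest in injured meninges (mean 7.95 CPM). The epithelial, fibroblast and endothelial sums were higher in every lung library than in any meningeal one, as S1pr1 and Klf2 were, and their part in these levels was not tested.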

How the data were processed

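The deposited file holds raw counts per Ensembl gene, whole numbers without normalization, for 9 libraries. Per the labels' protocols, a PicoPure kit served for RNA and an Ovation kit for its amplification. The build mm9 and the tools STAR, HTSeq and FastQC are named per the submitters' processing notes. Their versions, the annotation and the use of strand in counting are not given in the sources used here. Therefore overlapping and antisense genes cannot be told apart. The table gave 15969 symbols, 7407 more came from a reference list by identifier, and 90 genes kept the identifier.

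Genes were kept by filterByExpr in edgeR 4.0.16 (R 4.3.3), which left 15117, and libraries were scaled by TMM. A single fit held the 9 libraries, with 3 group means and 6 residual degrees of freedom, and robust quasi-likelihood F tests gave p-values adjusted by Benjamini-Hochberg over all genes kept, called under 0.05. Each SE was the absolute log2 fold change over the square root of F. Between any pair of libraries, chi-square per degree of freedom was 62.8 or more, so no pair differed by counting noise alone, which does not show that they hold separate RNA. Alternatives were other scalings and filters, DESeq2 1.42.0, limma 3.58.1 (voom), only the groups compared, a replicate block and leaving out each library. The procedure was tested on simulated counts, but the outcome is not reported here and gives no support to these results.

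The members and gene lists were chosen with earlier results of these data known. The members are named whatever their value. For each list the called genes are named, or else those with the smallest p, with others chosen for their role after values were seen, and each marker list is named by the gene with the highest mean over all libraries. Exon lengths come from GENCODE M21, whose build is not that of the counts, so values per kilobase are approximate.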

Additional observations from a re-analysis of the deposited data

How the results depend on the processing

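None of the 4 tested genes was called under any of the 18 alternatives, except S1pr1 by DESeq2 in uninjured meninges against lung (-3.12, adjusted p = 0.0014) and in injured meninges against lung (-2.75, adjusted p = 0.0051). The cause was not tested. With 1 library left out, S1pr1 ran from -3.60 to -2.72 and from -3.50 to -2.33 in these comparisons and from -0.41 to 0.88 after injury, where it was negative without injured meninges 1. S1pr4 ran from -0.71 to 0.63 in injured meninges against lung, negative without injured meninges 1 and without lung 2. Cd69 ran from -0.93 to 0.11 after injury, positive without uninjured meninges 3 and without injured meninges 2, and from -0.66 to 0.0104 in uninjured meninges against lung, positive without uninjured meninges 1. Klf2 after injury was 0.55 with limma voom against -0.84. All other signs were kept, but sizes were not: with 1 library left out, Cd69 in injured meninges against lung ran from -1.23 to -0.30, S1pr4 after injury from -1.60 to -0.25, and Klf2 from -2.01 to -0.28 after injury, from -3.72 to -2.14 in injured meninges against lung and from -2.26 to -1.12 in uninjured meninges against lung. The widest of these values came without injured meninges 3 for Cd69 and without injured meninges 1 for S1pr4 and for Klf2 with injured meninges. Klf2 in uninjured meninges against lung was -3.41 with limma voom against -1.70.

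Counts of genes called, on which the backgrounds rest, moved more. For injury, uninjured meninges against lung and injured meninges against lung, edgeR called 29, 96 and 159 genes. Without the low count filter the counts were 78, 193 and 296, with DESeq2 435, 536 and 1091, and with limma voom 17, 195 and 274. With only the 6 libraries compared they were 12 after injury and 226 in uninjured meninges against lung. Leaving out 1 library gave 18 to 27, 51 to 196 and 54 to 230. Changes over 1.5 times came after injury without injured meninges 2 (18) and uninjured meninges 2 (19), in uninjured meninges against lung without lung 3 (51), uninjured meninges 2 (53) and injured meninges 2 (196), and in injured meninges against lung without lung 3 (54), lung 1 (90), lung 2 (101) and injured meninges 3 (104).

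Of 9 same-numbered pairs, 0 had deviations from their group means correlated above 0.1, while 5 of 9 libraries were closest to their own number. With 3 libraries per group these checks cannot decide whether the replicate numbers pair the libraries. With the replicate block the counts were 43, 136 and 183, against 29, 96 and 159 without it. S1pr1 then stood at 0.21, -3.07 and -2.85 in the 3 comparisons, with no member called.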
